A study of Bos grunniens with 3 samples.

Results

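The genes FABP5, FABP7, PMP2 and CRABP2 encode small cytosolic carriers of fatty acids or retinoic acid. They were taken by symbol, and each symbol matched 1 row, giving 4 of the 26924 genes counted. Their identifiers in the deposited tables are ENSBGRG00000019123 for FABP5, ENSBGRG00000010179 for FABP7, ENSBGRG00000019143 for PMP2 and ENSBGRG00000024907 for CRABP2. The cells came from scapular skin of the Tianzhu white yak, a domestic yak breed, and single-cell RNA was captured in droplets at 3 stages of the hair cycle: anagen (growth), catagen (regression) and telogen (rest). Per the labels the animals were healthy and about 2 years old, and single follicles were pulled from the enzyme-treated skin before their cells were freed. Which animal or animals gave each library is not given in the sources used here. The study's article reports results for anagen and catagen only. Each stage was 1 library, so stage, animal and library cannot be told apart, no test between stages was possible, and every interval below covers counting error only. The library whose title and stage label read catagen has an extraction text naming anagen. It is called catagen here after its title.

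These 4 proteins belong to the intracellular lipid-binding family, in which a barrel of strands closes over a single hydrophobic ligand. FABP5 is the epidermal fatty acid-binding protein, FABP7 is best known from brain radial glia, and PMP2 is the P2 protein of peripheral myelin, made by Schwann cells. CRABP2 carries retinoic acid to its nuclear receptors. In hair-bearing skin, keratinocytes of the epidermis, of the inner root sheath (IRS, the layers that mould the growing shaft) and of the cortex (the body of the shaft) follow different keratin programmes, so keratin genes locate each carrier. In RefSeq's annotation of the Bosgru_T2T1.0 yak assembly, FABP5 lies beside its relatives FABP9 and FABP12.

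Of 12000, 12124 and 14573 barcodes in the anagen, catagen and telogen libraries, 11987, 12062 and 14502 had at least 200 detected genes and were kept. They held 82816430, 51537357 and 103430933 unique molecular identifiers (UMIs, counted RNA molecules), with medians of 5256, 3350 and 5584 per cell. The anagen matrix held no cell under 2404 UMIs, while 4104 catagen and 3953 telogen cells lay under that total, a depth gap that bears on shares of cells. Between 40 and 49 barcodes were shared by each pair of libraries. Levels below are CPM, the UMIs of a gene per 1000000 UMIs of the same cells. Clusters were built without the 4 genes. Those given a class by fixed marker genes are mostly called "-like", and the others are called by their leading genes. Cluster levels by stage come from a clustering of all 3 libraries together unless the text says otherwise.

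Over whole libraries, FABP7 was highest in anagen, FABP5 and CRABP2 were highest in telogen, and PMP2 was lowest in telogen. FABP5 stood at 418 CPM (95% Poisson interval 413 to 422) in anagen, 335 (329.6 to 339.6) in catagen and 757 (751 to 762) in telogen. FABP7 stood at 117 CPM (115 to 119.7), 23.5 (22.2 to 24.9) and 21.2 (20.3 to 22.1). The anagen value of FABP7 lay far above the other two, which were close to each other. PMP2 stood at 511 CPM (506 to 516), 554 (548 to 561) and 325 (321 to 328). CRABP2 stood at 20.9 CPM (19.9 to 21.9), 31.9 (30.4 to 33.5) and 54.8 (53.4 to 56.3), and its 3 intervals did not overlap.

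As log2 ratios to anagen, FABP7 was −2.32 (−2.40 to −2.23) in catagen and −2.47 (−2.54 to −2.40) in telogen. CRABP2 was 0.61 (0.51 to 0.71) in catagen and 1.39 (1.31 to 1.47) in telogen. FABP5 was −0.32 (−0.35 to −0.29) and 0.86 (0.84 to 0.88), and PMP2 was 0.12 (0.09 to 0.14) and −0.65 (−0.68 to −0.63). The median log2 ratio of all genes with at least 10 CPM in either library was 0.05 in catagen and −0.18 in telogen. Relative to those medians the telogen ratios were 1.04 for FABP5, −2.29 for FABP7, −0.47 for PMP2 and 1.57 for CRABP2. In catagen, 1 of the 4 genes (FABP7) was at least 2-fold lower, as were 3.47% of 6054 genes, and 0 were at least 2-fold higher against 4.41% of genes. In telogen, FABP7 was at least 2-fold lower and CRABP2 at least 2-fold higher, against 7.83% and 3% of 5733 genes. The small PMP2 ratio in catagen changed sign with the scaling, to −0.093 with median-of-ratios size factors and −0.49 as the mean of each cell's CPM.

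**Figure D1:**
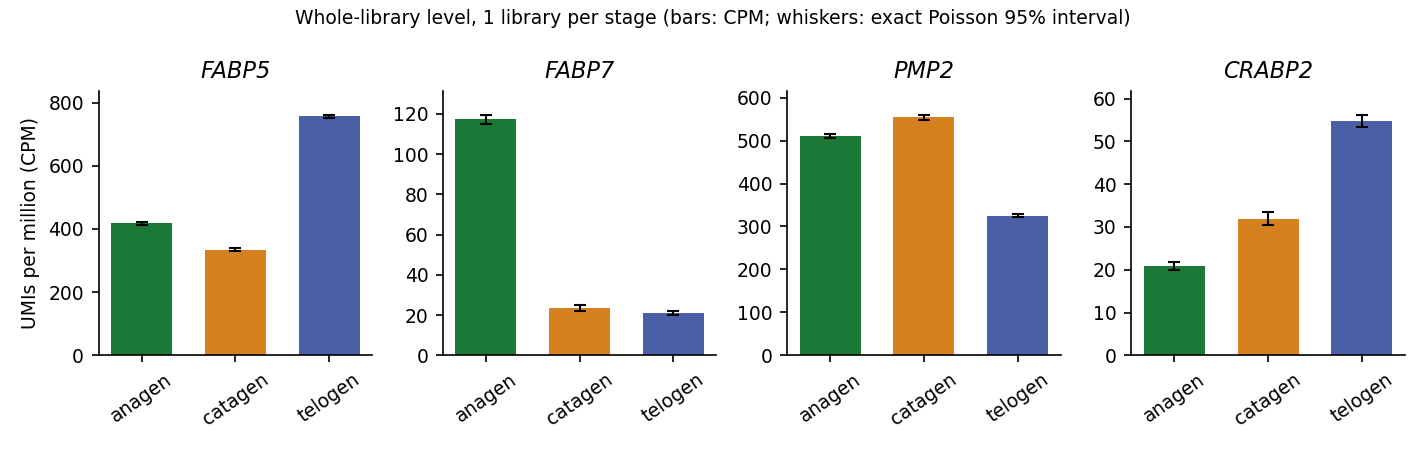
Level of each of the 4 genes in the 3 libraries, in CPM over the kept cells, with 95% Poisson intervals that cover counting error only. FABP7 falls from 117 in anagen to 23.5 and 21.2, while FABP5 reaches 757 and CRABP2 54.8 in telogen.

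The whole-library levels of PMP2 and FABP7 rested on few cells. The 1% of cells with most PMP2 UMIs held 78.4%, 91.8% and 89.1% of them in anagen, catagen and telogen, and for FABP7 the shares were 38.3%, 83.6% and 90.1%. For FABP5 the same 1% held 13.1%, 21.7% and 17.8%, and for CRABP2 35.9%, 48.8% and 33.9%. A single cell held 4371 of the anagen, 4232 of the catagen and 5040 of the telogen PMP2 UMIs, which is 10.3%, 14.8% and 15% of the library's total. Without the 1% of cells richest in the gene, an alternative chosen after seeing the data, the PMP2 log2 ratio of catagen to anagen went from 0.12 to −1.30 and that of telogen from −0.65 to −1.63. The FABP7 ratios then moved to −4.35 and −5.27. This trim picks cells by the gene itself, so its ratios follow largely from the shares above and are no independent check.

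**Figure D2:**
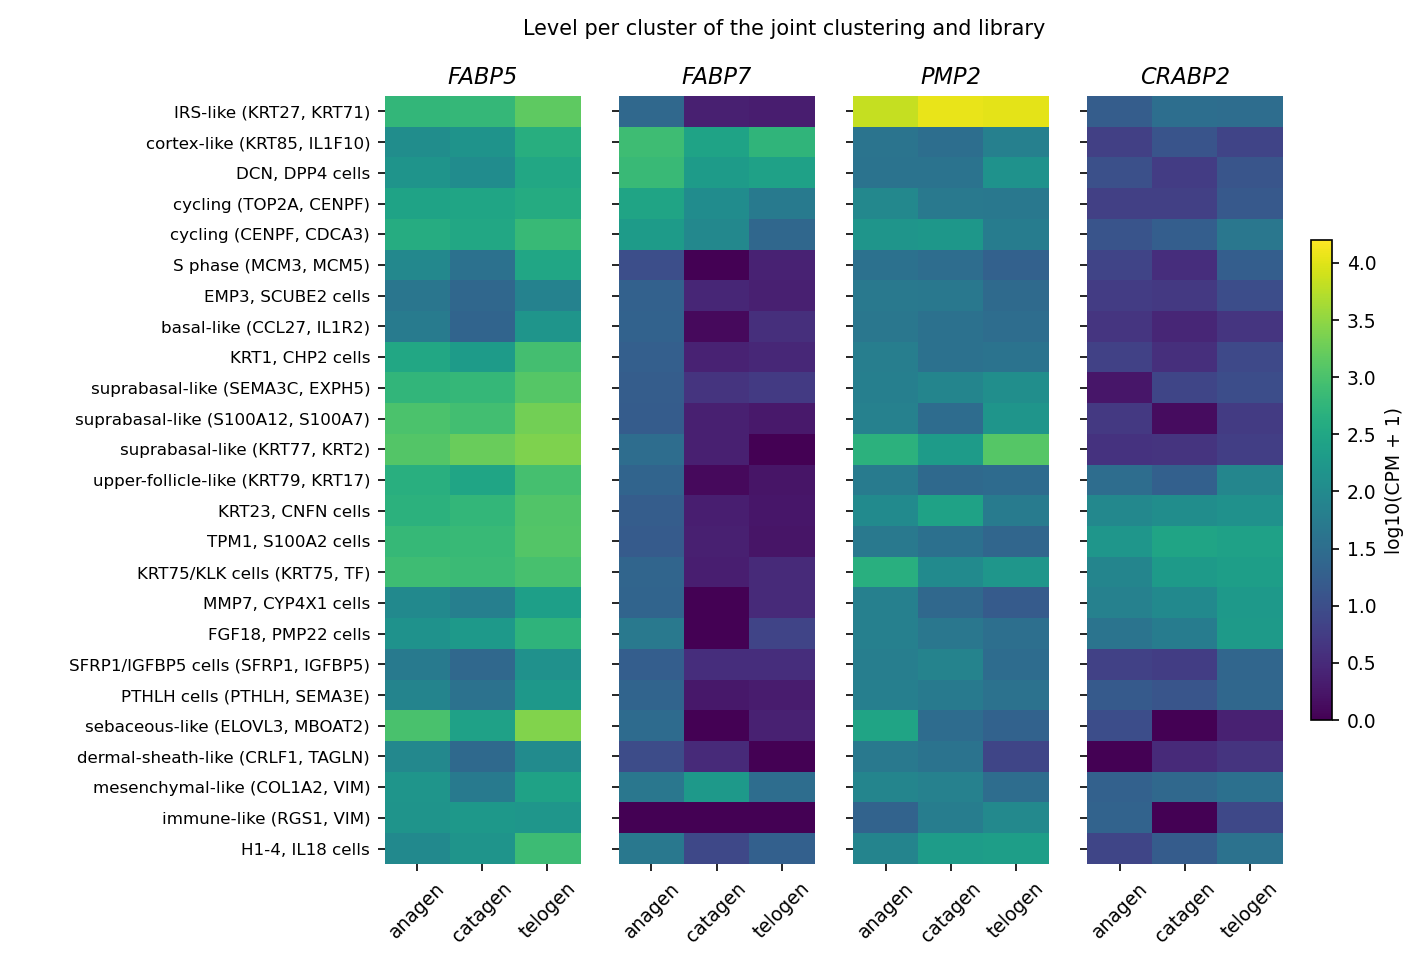
Level of each gene in the clusters of the 3 libraries clustered together, as log10(CPM + 1) on a colour scale, with libraries and clusters on the axes. PMP2 peaks in the IRS-like cells at 6761, 11365 and 10566 CPM, FABP7 in the cortex-like and DCN-led cells, FABP5 is high in the suprabasal-like cells led by KRT77 and KRT2, and CRABP2 peaks in the TPM1/S100A2 cells.

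PMP2 transcripts lay mainly in cells with the IRS keratins KRT71, KRT25, KRT27 and KRT28. The IRS-like cluster numbered 574, 261 and 142 cells, or 4.79%, 2.16% and 0.979% of each library, and held 83.3%, 89.1% and 79.8% of all PMP2 UMIs. Its PMP2 level was 6761 CPM (6690 to 6832) in anagen, 11365 (11226 to 11505) in catagen and 10566 (10440 to 10693) in telogen. Both later libraries lay above anagen, with log2 ratios of 0.75 (0.73 to 0.77) and 0.64 (0.62 to 0.67), while the IRS-like share of cells was lower. The median IRS-like cell went the other way in catagen, with 938 CPM of PMP2 in anagen, 460.0 in catagen and 1343 in telogen. The highest telogen cells held 5040, 4647 and 2937 of the 26817 PMP2 UMIs of the cluster. With anagen levels in every cluster and the telogen mix of clusters, PMP2 would stand at 247 CPM, and with telogen levels and the anagen mix at 759.6 CPM, against 325 as measured. Stage is the library's label, and whether the follicles of the 142 telogen IRS-like cells were at rest was not tested.

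Within the IRS-like cells PMP2 was uneven. The median cell held 5, 2 and 9 PMP2 UMIs in anagen, catagen and telogen, while the cell at the 90th percentile held 74, 232 and 412, and 15.8%, 37.5% and 21.8% of these cells had no PMP2 UMI. When the cells were ordered by the summed CPM of the 4 IRS keratins and cut into 5 bins of equal cell number, PMP2 went from 442 to 19979 CPM in anagen, from 105 to 28820 in catagen and from 1193 to 24377 in telogen between the lowest and highest bin. The highest bin held 86.1%, 86.2% and 78.3% of the PMP2 UMIs of the cluster. In anagen and catagen each bin was above the one before it. In telogen, with 28 or 29 cells per bin, bin 4 (5080 CPM) was slightly under bin 3 (5356 CPM), and 1 cell held 79.0% of the UMIs of bin 1 and 47.3% of those of bin 3.

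The 5 genes whose profile over 60 cluster-by-library sums was most like that of PMP2 were KRT27 (Pearson r = 0.89 on the log2(CPM + 1) scale), KRT71 (0.85), KRT25 (0.83), PADI1 (0.78) and KRT28 (0.77). PADI1 converts arginine to citrulline in epidermal proteins, and the other four are type I or type II keratins of the IRS. These sums share libraries and cells, so the values are descriptions.

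PMP2 also appeared outside the IRS-like cluster. Suprabasal-like cells led by KRT77 and KRT2, keratins of differentiating epidermis, held 491 CPM (462 to 520) in anagen, 202 (180.2 to 226) in catagen and 1242 (1174 to 1314) in telogen. In these cells the telogen log2 ratio was 1.34 (1.22 to 1.46) and the catagen ratio −1.28 (−1.47 to −1.09). The larger suprabasal-like cluster led by S100A12 and S100A7 showed the same order, at 68.9, 30 and 155 CPM. PMP2 stood at 448 CPM in anagen cells led by KRT75 and KLK10 against 102 and 158 later, and at 286 CPM in anagen sebaceous-like cells against 29.5 and 20.2. In anagen these clusters also held 461 and 751 CPM of the 4 IRS keratins, and 21 and 14 of their cells were rich in PMP2 with at least 10 IRS keratin UMIs. Cells led by KRT23 and CNFN were highest in catagen, at 266 CPM against 103 and 55.1. Single cells weighed on some of these values: 1 cell held 211 of the 617 PMP2 UMIs of the catagen KRT23/CNFN cells, and 1 held 346 of the 501 UMIs of the telogen KRT75/KLK10 cells, beside 284 IRS keratin UMIs. The median over the other clusters was 64.2, 45.7 and 43.0 CPM.

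Cells with at least 10 PMP2 UMIs numbered 345, 120 and 162, and of these 55, 18 and 77 had fewer than 10 UMIs of the 4 IRS keratins together. The keratin-poor cells held 2.26%, 2.55% and 7.55% of all PMP2 UMIs, and 52, 10 and 72 of them had at least 10 UMIs of KRT1 and KRT10, the keratins of suprabasal epidermis. FABP5 was detected in 55 of 55, 16 of 18 and 77 of 77. Among the PMP2-rich cells with at least 10 IRS keratin UMIs, it was detected in 251 of 290, 77 of 102 and 80 of 85. Of all KRT77/KRT2 cells only 1.35%, 0.641% and 1.35% lacked FABP5, so its detection does not set the keratin-poor cells of that cluster apart. Median depths were 12107, 9905.5 and 12319 UMIs in the keratin-poor cells and 9699.5, 10214 and 17390 in the keratin-rich ones. Per IRS keratin UMI, the IRS-like cells held 0.252, 0.237 and 0.296 PMP2 UMIs and the other clusters a median of 0.302, 0.269 and 0.524, whereas the KRT77/KRT2 cells held 1.33, 3.05 and 76.7. The KRT77/KRT2 ratio thus lay above the IRS-like ratio in all 3 libraries. In anagen 1 KRT77/KRT2 cell held 208 of their 1105 PMP2 UMIs and 437 of their 829 IRS keratin UMIs. In telogen the ratio of 76.7 rests on 16 keratin UMIs. Other clusters also lay above the IRS-like ratio in all 3 libraries, among them KRT23/CNFN cells (0.861, 2.68 and 1.35) and S100A12/S100A7 cells (0.583, 0.307 and 3.92). So did KRT75/KLK10 cells (0.972, 0.559 and 1.03) and sebaceous-like cells (0.381, 0.346 and 0.583). Some clusters lay below it in all 3, such as DCN-led cells (0.0945, 0.0888 and 0.232). Of the 55, 18 and 77 keratin-poor cells 0, 0 and 5 were among the 5% of cells with the highest doublet scores. The scoring tool, Scrublet, called 0 doublets in each library, so these counts cannot tell whether such cells were doublets.

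**Figure D3:**
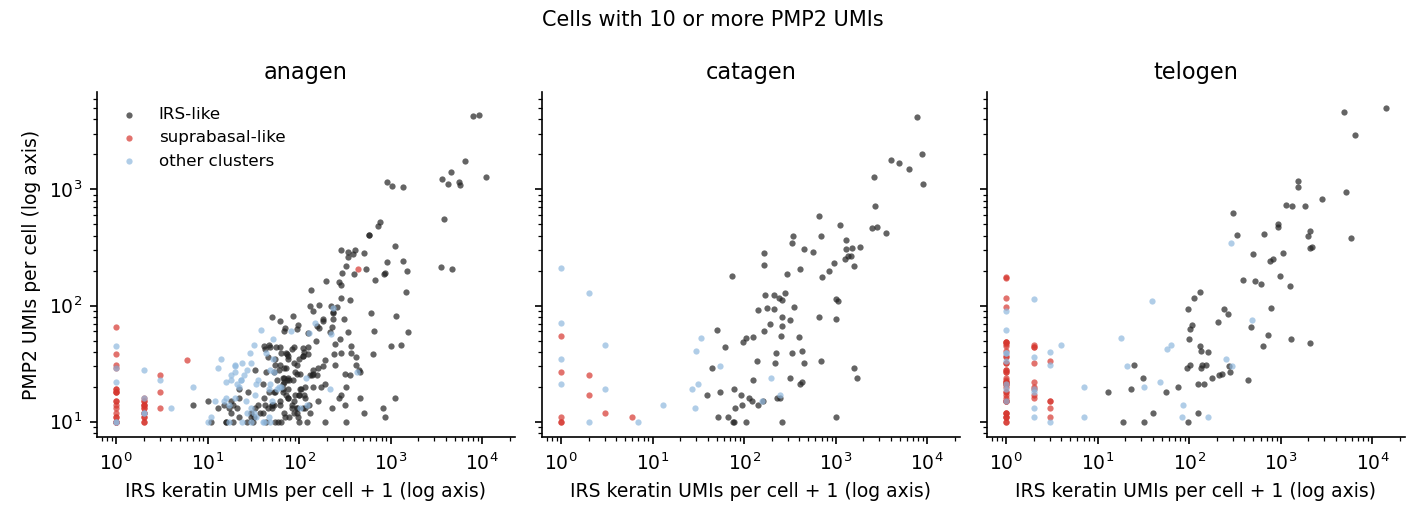
PMP2 UMIs against summed KRT71, KRT25, KRT27 and KRT28 UMIs in each cell with at least 10 PMP2 UMIs, on log axes, 1 panel per library. Most points rise with the IRS keratins, and a separate group of 55, 18 and 77 cells has fewer than 10 keratin UMIs.

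Schwann cells are a known source of PMP2, and few transcripts of the glial markers counted here were found. CDH19 had 0 UMIs in all 3 libraries, SOX10 had 1, 3 and 2, and S100B had 26, 22 and 78. Of 4 such markers 3 had a UMI in each library, and their summed level was 19.6, 33.7 and 13.8 CPM, of which ERBB3, a receptor also made by epithelial cells, made up 19.2, 33.3 and 13.0. Cells with at least 2 of these markers numbered 3, 4 and 10, and held 0%, 0.098% and 0.00893% of PMP2 UMIs and 0.0103%, 0% and 0% of FABP7 UMIs.

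FABP7 transcripts lay in cortex-like cells, in an unnamed cluster led by DCN, DPP4, UHRF1 and ICA1, and in cycling-like cells. The cortex-like cells, defined by the hair keratins KRT85 and KRT35 and by HOXC13, MSX1 and MSX2, held 779 CPM (750.1 to 808) in anagen, 270.0 (243 to 299.8) in catagen and 559 (529 to 591) in telogen, over 392, 208 and 152 cells. The DCN-led cells held 705 CPM (678 to 733), 199 (180.4 to 220.1) and 249.6 (223 to 278). Anagen was highest in both, with catagen log2 ratios of −1.53 (−1.69 to −1.37) and −1.82 (−1.98 to −1.67). Telogen parted the clusters, at −0.48 (−0.57 to −0.38) in cortex-like cells and −1.50 (−1.67 to −1.33) in DCN-led cells. Together these clusters held 55.1%, 61.8% and 72.0% of FABP7 UMIs. Whether the follicles of the 152 telogen cortex-like cells were at rest was not tested.

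The DCN-led cells carried DCN and DPP4, which the study used as markers of its fibroblast clusters in anagen and catagen. The cells of those clusters were not matched to the ones here. In the DCN-led cells the collagen genes COL1A2 and COL3A1 were at or near 0. COL1A2 stood there at 0.28, 0 and 0 CPM and COL3A1 at 0 in each library, against 5089, 93.6 and 855 CPM of COL1A2 in the mesenchymal-like cells. These cells also matched a second class, S phase, with all its fixed markers raised and 3 of them among the 10 leading genes. They are therefore called here by their leading genes only.

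FABP7 differed between clusters of cycling-like cells. When anagen and catagen were clustered together, 4 clusters were cycling-like. The one led by TOP2A and CENPF held 373 CPM (358 to 389) in anagen and 119 (106 to 132) in catagen, and the one led by CENPF and CDCA3 held 168 (155 to 182) and 90.8 (53.8 to 144). The one led by CKAP2 and KIF23 held 25.1 CPM (19.7 to 31.7) and 16.5 (8.54 to 28.9), and the smallest, led by ICA1 and CENPF, held 236 over 8 anagen cells and 29.2 (7.95 to 74.7) in catagen. The order of FABP7 was not that of the hair keratin: KRT85 stood at 638 and 395 CPM in the TOP2A/CENPF cells and at 1227 and 1004 CPM in the CENPF/CDCA3 cells. Between the same clusters DCN had the order of FABP7, at 204 and 393 CPM against 41.6 and 35.3. So did ICA1, at 140 and 195 CPM against 48.3 and 40.4. MSX1 had it in anagen only, at 77.1 and 46.6 CPM against 33.1 and 50.4. The catagen CENPF/CDCA3 cells numbered 43, and the catagen FABP7 intervals of these clusters overlapped. Over all 4 clusters the orders differed in catagen. The ICA1/CENPF cells there held 204 CPM of ICA1 and 117 of DCN beside 29.2 of FABP7. In the clustering of all 3 libraries the larger cycling-like cluster held 286, 111 and 50.3 CPM of FABP7 and the other 202, 90.1 and 23.9. In telogen clustered alone, where the cortex-like cells shared a cluster with the IRS-like ones, the cycling-like cluster held 1.47 CPM (0.783 to 2.51), so the telogen value depended on the clustering.

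Within the cortex-like cells FABP7 was highest at middling keratin level. Ordered by KRT85 and KRT35 into 5 bins, anagen cells held 650.0, 866, 1172, 767 and 566 CPM of FABP7 from the lowest to the highest bin. Catagen cells held 158, 284, 351, 400.3 and 164 CPM, and telogen cells 512, 576, 655, 871 and 316 CPM. The peak fell in bin 3 in anagen and in bin 4 in the later libraries, and the highest bin lay below the peak in all 3. In catagen the intervals of bin 3 (277 to 440) and bin 4 (332 to 479) overlapped, so the bin of the peak is not settled there. Single cells weighed on the later bins, with 1 cell holding 40% of the FABP7 UMIs of catagen bin 1 and 27.6% of those of telogen bin 1. The keratin genes themselves rose across the bins by construction.

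**Figure D4:**
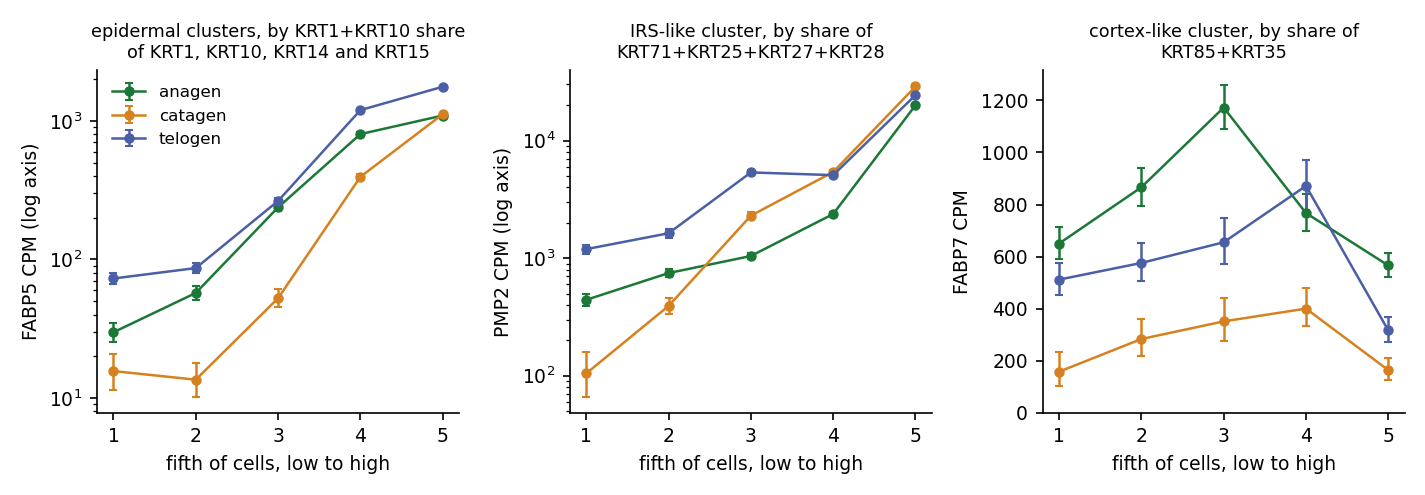
Level in CPM of PMP2 across IRS-like cells ordered by IRS keratins, of FABP7 across cortex-like cells ordered by KRT85 and KRT35, and of FABP5 across epidermal cells ordered by the KRT1 and KRT10 share, in 5 bins per library with 95% Poisson intervals. PMP2 and FABP5 are highest in the last bin, and FABP7 peaks in bin 3 or 4.

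The genes most like FABP7 over the same 60 sums were MSX1 (r = 0.90), KRT85 (0.89), HEPHL1 (0.84), MYL6B (0.83) and NOTUM (0.81). MSX1 is a homeobox factor of the hair matrix, KRT85 a hair keratin, and NOTUM a secreted inhibitor of Wnt ligands. All 5 had their highest whole-library level in anagen, as FABP7 did. The sums that picked them were split by library, so a shared stage order is in part built in.

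Outside these clusters FABP7 was low, and its low level differed between libraries. The median over clusters other than the cortex-like one was 21.4 CPM in anagen, 1.34 in catagen and 2.06 in telogen. The IRS-like cells held 24.9, 1.34 and 1.18 CPM and the suprabasal-like KRT77/KRT2 cells 30.6, 1.33 and 0 (0 of the UMIs, with an upper bound of 3.74 CPM). FABP7 was lower in telogen than in anagen in 21 of 21 clusters with at least 50 cells in both, as were 5.2% of genes tested in this way. In catagen it was lower in 23 of 24 clusters. The exception was the cluster named mesenchymal-like, in which all fixed endothelial markers were raised too. There, 21 UMIs gave 179 CPM, and 1 cell held 52.4% of them. Over all genes, 0.727% were lower in all 24, a stricter count, and the share lower in at least 23 was not computed. Cells with at least 2 of 4 melanocyte markers numbered 10, 29 and 25. They held 0%, 2.23% and 2.24% of FABP7 UMIs, against 0.218%, 0.314% and 0.749% of all UMIs. RNA from other cells in the droplets would add a like low level in every cluster, and its part in these values was not tested. With anagen levels and the catagen or telogen mix of clusters, FABP7 would stand at 83.6 or 68.0 CPM, and with the later levels and the anagen mix at 37.5 or 42.9 CPM.

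Among epidermal clusters, FABP5 was low in basal-like cells and highest in suprabasal-like cells. Basal-like cells led by CCL27 held 55.1 CPM in anagen, 21.5 in catagen and 156 in telogen. The intermediate cluster led by KRT1 and CHP2 held 328, 201.5 and 884 CPM. The suprabasal-like S100A12/S100A7 cells held 1024 CPM (1005 to 1044), 849.8 (825 to 875) and 1998 (1964 to 2032), and the KRT77/KRT2 cells 1177 (1133 to 1223), 1733 (1667 to 1801) and 2475 (2378 to 2576). Of KRT77/KRT2 cells, 98.6%, 99.4% and 98.6% had a FABP5 UMI, with medians of 10, 15 and 25.5 UMIs per cell at full depth.

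Ordered by the share of KRT1 and KRT10 among KRT1, KRT10, KRT14 and KRT15 UMIs, epidermal cells went from 29.8 CPM of FABP5 in the lowest bin to 1092 in the highest in anagen, from 15.6 to 1116 in catagen and from 72.8 to 1761 in telogen. The 2 lowest catagen bins, 15.6 and 13.6 CPM, had overlapping intervals, and every other step was upward. Each telogen bin lay above the anagen and catagen bins of the same rank. Bins of the same rank were not at the same KRT1 and KRT10 share. It was 21.3%, 5.59% and 6.45% in bin 3 and 84.3%, 66.0% and 34.0% in bin 4 of anagen, catagen and telogen.

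FABP5 was also high outside the basal-like and suprabasal-like clusters. IRS-like cells held 607, 620.1 and 1415 CPM, TPM1/S100A2 cells 659, 664 and 1196, KRT75/KLK10 cells 780.0, 715 and 941, and KRT79-marked upper-follicle-like cells 449.7, 291 and 906. Sebaceous-like cells held 971, 256 and 2542 CPM, and in telogen, with 46 such cells, 1 cell held 29.4% of the UMIs. Mesenchymal-like cells held 153, 51.1 and 260.0 CPM.

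FABP5 was higher in telogen than in anagen in 21 of 21 clusters, with log2 ratios from 0.27 to 2.93 and a median of 1.15, and higher than in catagen in 21 of 21, with a median of 1.56. Of all genes tested in this way, 6.96% were higher in telogen than anagen in every cluster and 7.07% higher than catagen. The part of RNA from other cells in the droplets was not tested for FABP5 either. Catagen against anagen gave 9 clusters higher and 15 lower. Over all genes, 2.13% were higher and 0.727% lower in every cluster, and the share with such a mixed count was not computed. The smallest telogen ratio was in the KRT75/KLK10 cells, at 0.27 (0.18 to 0.37). With telogen levels and the anagen mix of clusters, FABP5 would stand at 872 CPM, and with anagen levels and the telogen mix at 361 CPM, against 757 as measured.

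The genes most like FABP5 were ELOVL4 (r = 0.78), SULT2B1 (0.75), GDPD3 (0.74), H2AJ (0.72) and CERS3 (0.71). ELOVL4 elongates very-long-chain fatty acids, CERS3 builds the ceramides of the epidermal barrier, and SULT2B1 sulphates cholesterol. Of these, H2AJ, a histone variant, was highest in telogen at 326 CPM against 154 and 165, whereas CERS3 was lowest there at 33.4 against 49.4 and 64.2.

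Most CRABP2 UMIs lay in 3 clusters, and the gene was low in suprabasal-like and basal-like cells. In cells led by TPM1 and S100A2 it stood at 159 CPM (146 to 173) in anagen, 279 (257 to 301) in catagen and 256 (242 to 269.7) in telogen. In KRT75/KLK10 cells, which carry kallikrein proteases and SPINK9, it stood at 81.4 CPM (67.9 to 96.9), 196 (175 to 219) and 226 (209.6 to 243), and in KRT23/CNFN cells at 88.8, 114 and 134. Together these 3 clusters held 60.5%, 74.7% and 55.2% of CRABP2 UMIs. In telogen the upper-follicle-like cells, which numbered 1596, held a large part of the rest. Suprabasal-like S100A12/S100A7 cells held 4.05, 0.389 and 4.35 CPM and basal-like cells 3.47, 1.79 and 3.52. Of the 3 clusters only the KRT75/KLK10 cells were given a class by the fixed markers, so the place of the others in the skin was not settled. In the study's immunohistochemistry, S100A2 protein lay mainly in interfollicular epidermis.

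CRABP2 was higher in telogen than in anagen in 21 of 21 clusters, in 14 of them beyond the counting interval, with a median log2 ratio of 0.90. Of all genes tested in this way, 6.96% were higher than anagen in every cluster. The basal-like and S100A12/S100A7 cells were among the 21, at a few CPM in either library. RNA from other cells in the droplets would add a like low level in every cluster, and its part was not tested. Against catagen CRABP2 was higher in 18 and lower in 3 of 21. Over all genes, 7.07% were higher and 10.2% lower in every cluster, a stricter count, and the share higher in at least 18 was not computed. In TPM1/S100A2 cells the telogen value lay close to catagen, with a log2 ratio of −0.12 (−0.26 to 0.01), and both lay above anagen by 0.69 (0.54 to 0.83) and 0.81 (0.64 to 0.98). In the upper-follicle-like cells telogen was at 84.2 CPM against 30.2 and 18.5. At full depth the KRT75/KLK10 cells had CRABP2 UMIs in 32.2%, 41.0% and 74.2% of cells, with a median of 0, 0 and 2 UMIs. These shares and medians were not brought to a common depth, and the part of depth in them was not tested.

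The genes most like CRABP2 were NMB (r = 0.80), KLK10 (0.79), PCCB (0.72), S100A2 (0.71) and UBA1 (0.70). NMB encodes neuromedin B, a peptide, and stood at 80.3, 83.0 and 245 CPM, while S100A2, a calcium-binding protein of keratinocytes, stood at 2777, 1625 and 4559.6 CPM. Both were highest in telogen, as was CRABP2, which is again in part built in by picking genes over sums split by library.

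For shares of cells at a common depth, UMIs were drawn down to 1500 per cell. No anagen cell was shallower than that, and 2263 catagen and 2932 telogen cells were left aside. FABP5 was then found in 31.9%, 20.02% and 39.8% of cells, FABP7 in 8.68%, 1.39% and 1.22%, PMP2 in 13.1%, 7.70% and 6.59%, and CRABP2 in 2.54%, 2.66% and 4.87%. At full depth the anagen shares were 55.6%, 16.8%, 29.3% and 8.24%. As a measure of background, the anagen endothelial-like cells (78 cells, median 3293 UMIs) had thinned shares of 8.97% for FABP5, 6.41% for FABP7, 8.97% for PMP2 and 1.28% for CRABP2. In catagen 0, 0, 1 and 0 of 22 such cells had a UMI (median 1656), and in the telogen cluster with endothelial and mesenchymal markers the shares were 14.3%, 7.14%, 2.38% and 4.76% of 42 cells (median 3553). The FABP5 share over all cells lay above the interval of that background in each library. The shares of the other 3 genes lay within or below it. With 22 catagen and 42 telogen cells those intervals are wide. The FABP7 share of the telogen cluster, 7.14%, lay above the 1.22% of all telogen cells. Such clusters are thus a weak measure of background in the later libraries. As a precaution, single UMIs of those 3 genes are not read as expression, and their location rests on the cluster levels and on cells with more UMIs.

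Since single UMIs can be background, pairs were also counted at 2 or more UMIs and at 10 or more. At 1 or more UMIs, cells with both FABP5 and CRABP2 were 1.61 (1.37 to 1.88), 2.58 (2.17 to 3.05) and 1.66 (1.49 to 1.83) times the product of the 2 shares in anagen, catagen and telogen. FABP5 and PMP2 gave 1.28 (1.18 to 1.38), 1.16 (0.9998 to 1.35) and 1.28 (1.15 to 1.41). FABP5 and FABP7 gave 0.789 (0.697 to 0.889), 0.404 (0.202 to 0.722) and 0.712 (0.509 to 0.969), below 1 in all 3 libraries. At full depth the same pair gave 1.16 in catagen and 1.11 in telogen, so its direction there depended on thinning. The pair FABP7 and PMP2 gave 0.890 (0.739 to 1.06), 0.668 (0.269 to 1.38) and 0.645 (0.237 to 1.40), and the pair FABP7 and CRABP2 0.758 (0.463 to 1.17), 0.276 (0.00699 to 1.54) and 0.436 (0.0900 to 1.27). All 6 of those intervals include 1. PMP2 and CRABP2 gave 0.831, 1.14 and 0.591, with only telogen below 1 beyond its interval (0.371 to 0.895).

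At 2 or more UMIs, FABP5 and CRABP2 stood at 2.58 (1.18 to 4.89), 5.25 (3.21 to 8.11) and 3.01 (2.29 to 3.88) times the product of their shares, and FABP5 and PMP2 at 1.96 (1.63 to 2.33), 2.32 (1.57 to 3.31) and 2.399 (1.94 to 2.94). FABP5 and FABP7 stood at 0.426 (0.270 to 0.639) in anagen and 0.483 (0.194 to 0.995) in telogen, with 0 cells in catagen where 4.72 would be given by the shares. FABP7 and PMP2 stood at 0.233 (0.0636 to 0.597) in anagen. Their later libraries, and CRABP2 with FABP7 or PMP2 in all 3, held at most 1 cell with both where at most 1.43 would be given, too few to read.

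**Figure D5:**
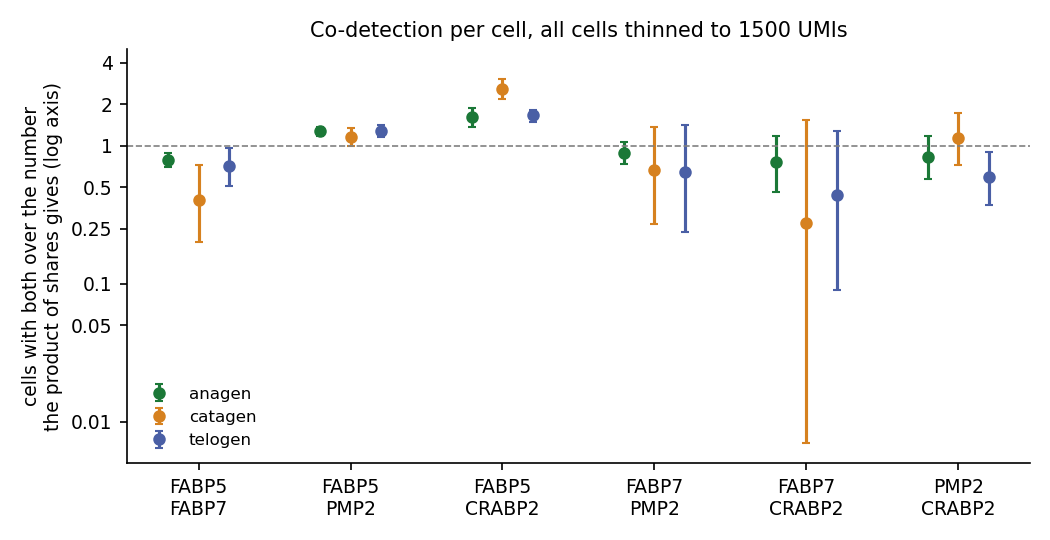
Cells with UMIs of both genes of a pair, as a multiple of the number the product of the 2 shares gives, for 6 pairs and 3 libraries at 1500 UMIs per cell, with intervals that cover counting error only. FABP5 with CRABP2 lies above 1 (1.61, 2.58 and 1.66), and FABP5 with FABP7 below 1 at this depth (0.789, 0.404 and 0.712), which did not hold at full depth in catagen (1.16) and telogen (1.11).

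At 10 or more UMIs per gene and full depth, 1 of 298 FABP7-rich and 345 PMP2-rich anagen cells had both, where the product of the shares gives 8.58. In catagen and telogen none did, where 0.348 and 0.715 are given, so no exclusion can be read there. No cell was rich in CRABP2 and in FABP7 or PMP2, where the shares give at most 1.15 cells. Of the cells rich in CRABP2, 5 of 6, 15 of 21 and 94 of 103 were also rich in FABP5 (0.525, 0.867 and 15.8 given), and so were 99, 36 and 115 of the PMP2-rich cells (30.2, 4.95 and 24.8 given). For FABP5 and FABP7 the numbers were 9, 0 and 15, where 26.1, 1.45 and 9.79 are given, so the low anagen count was not seen in telogen. Cells rich in CRABP2 were deep, with medians of 16519, 17781 and 24106 UMIs, and depth raises the chance of passing 10 UMIs of both genes. Its part in these numbers was not tested.

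Pairs were also counted within single clusters, at 1 or more UMIs per thinned cell. Within IRS-like cells FABP5 and PMP2 stood at 0.98, 0.83 and 0.95 times the product of their shares. Within TPM1/S100A2 cells FABP5 and CRABP2 stood at 1.202, 1.42 and 1.19, and within KRT75/KLK10 cells at 1.01, 1.02 and 1.08.

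The pathway around these carriers was sparsely counted. Of 30 fatty acid transport and activation genes, 19 had a row. Of the 8 tested in catagen 0 were at least 2-fold higher and 1 lower (ACSBG1, an acyl-CoA synthetase, log2 −2.60, median of the 8 genes 0.19), beside 4.41% higher and 3.47% lower over all genes. Of 7 in telogen 0 were past 2-fold (median −0.38), beside 3% higher and 7.83% lower, and the medians over all genes were 0.05 and −0.18. ACSL3, an acyl-CoA synthetase, stood at 77.2, 75.6 and 57.0 CPM and ACBD3, a Golgi protein with an acyl-CoA-binding domain, at 116, 90.6 and 89.4 CPM. In anagen, sebaceous-like cells held 659 CPM of ACSBG1. Of the FABP family, FABP6 had 0 UMIs and FABP12 had 2, 1 and 9, while the heart-type gene, listed as H-FABP, stood at 4.72, 2.64 and 12.4 CPM.

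Of 35 retinoid genes, 24 had a row and 6 were tested in each comparison. STRA6, the cell-surface retinol transporter, was the 1 gene lower in both, at 33.1, 6.85 and 11.5 CPM, or −2.27 in catagen and −1.52 in telogen, and 0 were higher. Over all genes 3.47% and 7.83% were lower and 4.41% and 3% higher. The list medians were −0.36 and −0.16, against 0.05 and −0.18. The retinoic acid receptor RARG stood at 110.5, 131 and 94.1 CPM and the carotenoid-cleaving enzyme BCO2 at 51.9, 84.4 and 65.8 CPM, and both were highest in the KRT77/KRT2 cells in all 3 libraries, where CRABP2 was at 3.11, 3.32 and 5.06 CPM. CRABP1, the closest relative of CRABP2, stood at 2.51, 0.621 and 2.87 CPM.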

How the data were processed

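Single-cell RNA was measured in 1 library per stage. Per the labels and matrix headers, the authors ran Cell Ranger (4.0.0, 3.1.0 and 6.0.2 in the anagen, catagen and telogen headers, 2.1.1 in the submitters' processing notes), and the deposited values are raw UMI counts per gene and barcode. The genome build is not given in the sources used here. Different versions call cells differently, and version and stage cannot be told apart.

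Cells with at least 200 genes were kept. Clusters were made in Seurat 5.3.0 (R 4.3.3) with 2000 variable genes per library (the 4 genes left out), 30 components and resolution 0.8. The main clustering integrated anagen and catagen and took telogen alone, and a clustering that integrated all 3 is used for levels by stage, because 1 telogen cluster of 552 cells mixed IRS and cortex markers. A cluster was named when at least 3 fixed markers were at least 1.5-fold higher and 1 was among its 10 leading genes. It was left unnamed where a second class also had at least 3 markers among those 10 genes, as in the DCN-led cells. Scrublet called 0 doublets in each library, so it had not worked and doublets were left in, with the 5% highest scores removed as an alternative. Ratios used exact conditional intervals, shares exact Clopper-Pearson intervals, and scripts were tested on simulated data (Python 3.11.15, scipy 1.17.1, scanpy 1.11.5).

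Named genes are the 4 members, the 5 genes most alike to each (of 3992 with at least 50 CPM in a sum), list genes with at least 50 CPM in a library, family relatives and class markers. ACSBG1, STRA6 and the relatives at low level were named after their values were seen. Members and lists were chosen with earlier results of these data known. Some glial markers are not reported here.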

Additional observations from a re-analysis of the deposited data

How the results depend on the processing

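No paired analysis was possible because each stage is 1 library, and no replicate could be left out. The whole-library log2 ratios to anagen, catagen then telogen, kept their direction for FABP5, FABP7 and CRABP2 under every alternative run. With median-of-ratios scaling they were −0.53 and 1.06 for FABP5, −2.53 and −2.27 for FABP7, −0.093 (reversed) and −0.45 for PMP2, and 0.40 and 1.59 for CRABP2. With the mean of each cell's CPM they were −0.66 and 0.80, −2.77 and −2.67, −0.49 (reversed) and −0.90, and 0.30 and 1.08. Without the 1% of cells richest in the gene, chosen after seeing the data, they were −0.47 and 0.82, −4.35 and −5.27, −1.30 (reversed) and −1.63, and 0.42 and 1.59. Without the richest cell of each library, also chosen then, PMP2 stood at 0.043 and −0.73. Both trims select on the gene itself, so they are no independent check. With at least 1000 genes per cell, the catagen ratios were −0.095 for FABP5, −2.01 for FABP7, 0.45 for PMP2 and 0.85 for CRABP2, and PMP2 in telogen −0.55. With cells of at least 2404 UMIs, catagen stood at −0.22 for FABP5, −2.20 for FABP7 and 0.23 for PMP2. Without the top 5% of doublet scores PMP2 in telogen was −0.63. The causes were not tested. Without thinning, 6 co-detection ratios crossed 1: PMP2 with CRABP2 in anagen (1.05) and telogen (1.07), FABP5 with FABP7 in catagen (1.16) and telogen (1.11), and FABP7 with PMP2 in catagen (1.101) and telogen (1.2004). At a minimum of 1 CPM, which tests more genes, 1 of 15 fatty acid genes was higher in catagen, and of 16 retinoid genes 2 were higher and 3 lower, against 9.92% higher and 4.06% lower of 11118 genes. The IRS-like share of PMP2 UMIs ranged over 83.2% to 85.1%, 88.5% to 90.8% and 79.8% to 85.0% by clustering and cell filter. The shares of other classes moved with how clusters were drawn and named: FABP5 in suprabasal-like cells 21.6% to 43.6%, 42.6% to 49.5% and 22.1% to 34.3%, FABP7 in cycling-like cells 24.5% to 31.8% in anagen and 25.6% to 31.3% in catagen, FABP7 in the telogen IRS-like class 0.137% to 93.5%, and CRABP2 in the study's keratinocyte class 4.39% to 55.3%, 17.4% to 73.3% and 10.8% to 36.1%.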
